A study of Mus musculus with 8 samples.

Results

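The 9 genes described here encode the classical complement recognition protein C1q (C1qa, C1qb, C1qc), the central components C3 and C4b, the alternative pathway proteins factor B (Cfb) and properdin (Cfp), and the receptors C3ar1 and C5ar1. They were taken by symbol from the 8 count tables, which together list 24405 genes, and all 9 are listed in each table. Their levels were read per library in cells with at least 500 unique molecular identifiers (UMIs, 1 per captured mRNA molecule). Cells were gated on a few genes: Csf1r for macrophages, Clec4f or Cd5l for Kupffer cells, Dcn, Col3a1 and Col1a2 for stromal cells, Csf3r for neutrophils, hepatocyte and proximal tubule gene sets for parenchyma, and Cd3d, Cd3e and Cd3g for T cells, which served as the background.

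The study asked how grafted organs that are accepted and those that are rejected differ in their immune cells. Livers, hearts and kidneys of BALB/c mice were placed in C57BL/6 recipients that received no immunosuppression, and organs and blood were taken at day 7. The libraries were peripheral blood mononuclear cells (PBMC) of heart, liver and kidney recipients, tissue-infiltrating lymphocytes (TIL) of the 3 organs isolated on a density gradient, and parenchymal cells (PC) of liver and kidney, all read by Microwell-seq. The labels give strain BALB/c, male sex and an age of 8 weeks for every sample, so whether a cell came from donor or recipient is not told by the labels. The paper took its samples from more than 1 recipient of each organ. Each condition is 1 library here, and whether recipients were pooled in it is not stated. Intervals in parentheses are therefore exact 95% intervals for counting error only, and no condition was tested against another.

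Complement is a cascade of plasma and membrane proteins. C1q binds antibody or altered cell surfaces and starts the classical route, which cleaves C4 and C2 and then C3, while factor B and properdin drive the alternative loop that amplifies C3 cleavage. The small fragments of C3 and C5 act on leukocytes through C3ar1 and C5ar1. Most plasma complement is made by hepatocytes, whereas C1q is known as a product of macrophages and related phagocytes, Kupffer cells of the liver included, and properdin as a product of leukocytes. Antibody-driven complement deposition is a known feature of graft rejection.

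In the GRCm38 annotation the C1q genes lie side by side on the minus strand of chromosome 4. C1qb spans chr4:136880129-136886187, C1qc chr4:136889804-136893065 and C1qa chr4:136895917-136898803. C4b (chr17:34728380-34743882) has a near-identical neighbour, C4a (chr17:34809092-34823464), and reads that map to both were discarded by the authors, so the C4b level is uncertain. Cfb (chr17:34856374-34862518) lies next to C2 (chr17:34862604-34898265). C3 lies at chr17:57203970-57228136, Cfp at chrX:20925454-20931555, C3ar1 at chr6:122847138-122856161 and C5ar1 at chr7:16246743-16259540, all on the minus strand.

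The stretches before the starts of C1qb and C1qc are shown because C1q carries most of the results that follow and its genes lie side by side. They come from RefSeq (GRCm38.p6, minus strand, 5′ to 3′), which matched 6 of the 9 symbols: C1qb, C1qc, C3, Cfp, C3ar1 and C5ar1. Annotated exons were left out, which gives 250 bases at chr4:136886201-136886450 for C1qb and 99 bases at chr4:136893066-136893164 for C1qc. Capitals mark AGGAAG, a purine-rich core bound by ETS factors such as PU.1, on either strand.

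C1qb: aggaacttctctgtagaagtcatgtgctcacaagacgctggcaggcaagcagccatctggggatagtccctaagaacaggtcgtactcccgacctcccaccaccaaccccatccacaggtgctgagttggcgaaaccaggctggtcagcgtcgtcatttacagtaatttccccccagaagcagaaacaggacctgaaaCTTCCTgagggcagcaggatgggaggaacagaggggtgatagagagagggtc
C1qc: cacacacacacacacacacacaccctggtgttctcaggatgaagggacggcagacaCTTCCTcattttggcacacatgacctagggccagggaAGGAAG

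C1qb held 1 match, on the reverse strand, and C1qc held 2, on opposite strands. Of 32851 RefSeq promoters, 29.5% hold this motif in 250 bases and 13.7% in the 99 bases nearest the RefSeq start. The C1qc stretch lies further from its RefSeq start, so the second share is not matched to it by position. At such shares a match here is no distinction. The interferon-type motifs TTCNNNGAA and GAAANNGAA and the pattern TTGCNNCAA were read on both strands with N as any base. They had no match in these windows or in those of C3, Cfp, C3ar1 and C5ar1, the last of which spans 48 bases. AGGAAG had none in these 4. TTCNNNGAA, GAAANNGAA and TTGCNNCAA occur in 7.02%, 7.13% and 1.74% of all 250-base windows.

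Of 80000 barcodes, 47542 held at least 500 UMIs, with medians from 581 UMIs in kidney PC to 1501 in liver PC. For both heart TIL and liver TIL, organ markers and label disagreed. The library labelled heart TIL held Alb at 113 counts per 1000000 UMIs (CPM) and Clec4f, a Kupffer cell lectin, at 22.2 CPM. The library labelled liver TIL had no UMI of either gene and held Myl7, an atrial myosin chain, at 15.0 CPM. Those libraries are therefore always named by their labels. Pairs of libraries shared 1 to 600 of the kept barcodes, most between the libraries labelled heart TIL and liver TIL, and the effect of leaving out all 6253 cells with a shared barcode is given in the closing section.

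A gate of 1 UMI did not isolate pure cells. Among Csf1r+ cells, 70.8%, 59.0% and 66.1% also carried a Cd3 UMI in the libraries labelled heart TIL, liver TIL and kidney TIL. The share was 73.7% in liver PC and 72.6% in kidney PC, and in the blood of heart, liver and kidney recipients it was 28.4%, 13.2% and 34.7%. All 9 macrophage markers were detected in Csf1r+ cells of 5 libraries, with Ms4a7 at 0 in kidney PBMC and Cd14 at 0 in kidney TIL and PC, and without Csf1r, which sets the gate, the summed level of the other 8 ran from 13333 to 30382 CPM against 2028 to 14972 CPM in T-gate cells. In blood the tissue macrophage markers were low, with Adgre1 at 17.2 CPM and Ms4a7 at 2.46 CPM in Csf1r+ cells of heart PBMC, while S100a8, a neutrophil and monocyte alarmin, reached 93332 CPM there and 82617 CPM in T-gate cells. The cells are therefore named by their gate, as Csf1r+ or Csf3r+ cells.

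C1q was abundant in every tissue library and low in blood. Summed over its 3 chains, C1q in Csf1r+ cells measured 6037 CPM (5926 to 6150) in the library labelled heart TIL, 8086 CPM (7951 to 8223) in the one labelled liver TIL and 3511 CPM (3113 to 3945) in kidney TIL. It measured 5997 CPM (5941 to 6054) in liver PC and 4612 CPM (4055 to 5223) in kidney PC. In PBMC it measured 101 CPM (80.2 to 125) for heart, 126 CPM (104 to 151) for liver and 65.3 CPM (13.5 to 191) for kidney recipients, the last from 3 UMIs in 49 cells. Ordered by level, the library labelled liver TIL came first, followed by the library labelled heart TIL and liver PC, whose intervals overlap, then kidney PC, kidney TIL, and the 3 blood libraries, whose intervals overlap too.

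T-gate cells, which should lack C1q, carried a large share of that level. They held 3241 CPM (3191 to 3291) in the library labelled heart TIL, 4384 CPM (4320 to 4448) in the one labelled liver TIL, 1111 CPM (1048 to 1176) in kidney TIL, 1601 CPM (1574 to 1627) in liver PC and 2933 CPM (2739 to 3136) in kidney PC. In blood they held 27.4 CPM (17.4 to 41.1), 49.2 CPM (29.6 to 76.8) and 1.71 CPM (0.0433 to 9.53) for heart, liver and kidney recipients. T-gate cells of each tissue library thus held more C1q than Csf1r+ cells of any blood library.

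Csf1r+ cells exceeded T-gate cells in all 8 libraries, by unequal amounts. The fold, with 1 CPM added to each side, was 3.74 (3.68 to 3.82) in liver PC and 3.16 (2.76 to 3.60) in kidney TIL. It was 1.86 (1.82 to 1.91) and 1.84 (1.80 to 1.89) in the libraries labelled heart TIL and liver TIL, and 1.57 (1.36 to 1.81) in kidney PC, all short of the 2-fold mark that was used as a rule of size. In blood it was 3.59 (2.30 to 6.13) for heart and 2.52 (1.56 to 4.40) for liver recipients, and kidney PBMC had too few UMIs. As the mean of per-cell CPM, the fold for heart PBMC fell short of 2, at 0.83 on the log2 scale.

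**Figure D1:**
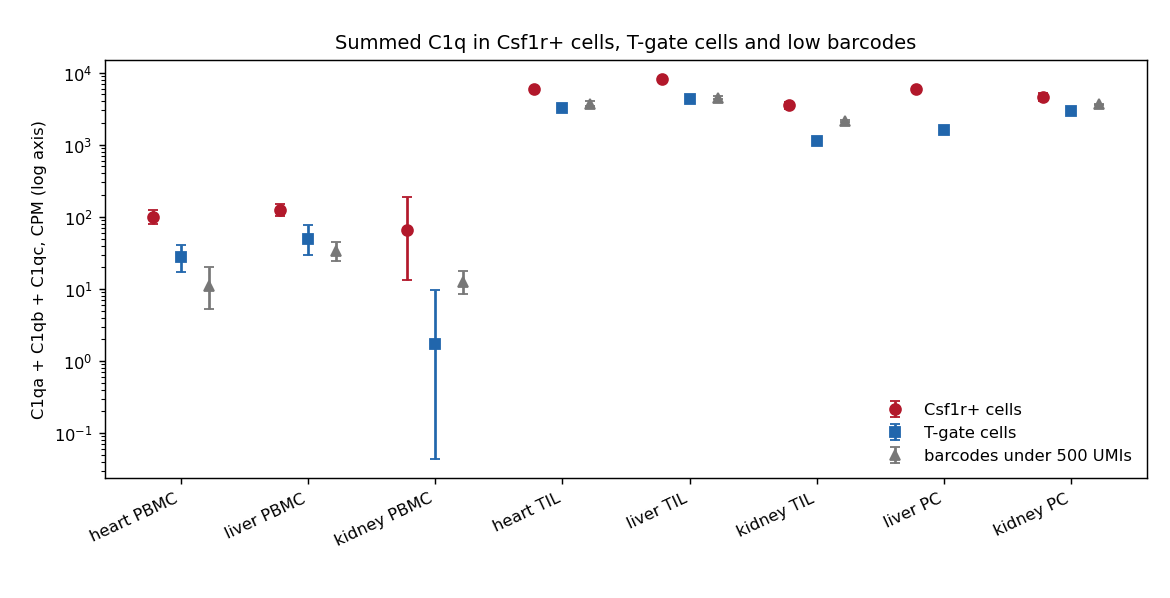
Summed C1qa, C1qb and C1qc in CPM, on a log axis, in Csf1r+ cells, T-gate cells and barcodes under 500 UMIs of each library, with exact 95% counting intervals as bars. The tissue libraries lie between 1111 and 8086 CPM in both gates, while the blood libraries reach at most 126 CPM.

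The level in each gate moved with how firmly a cell met it. In cells without Csf1r, C1q was 3440 CPM with at least 1 Cd3 UMI and 2011 CPM with at least 5 in the library labelled heart TIL, 4430 and 2070 CPM in the one labelled liver TIL, and 1763 and 1067 CPM in liver PC. In kidney TIL the values were 1105 and 474 CPM, and in kidney PC 2933 and 2408 CPM, with overlapping intervals in kidney PC only. In Csf1r+ cells of liver PC the level was 5997 CPM with at least 1 Csf1r UMI and 8838 CPM (8704 to 8973) with at least 3. The pair was 8086 and 12309 CPM (11536 to 13119) in the library labelled liver TIL, and 6037 and 7447 CPM (6827 to 8107) in the one labelled heart TIL, where cells with at least 2 held 7879 CPM. Median depth moved too, from 1818 to 3114 UMIs per cell in liver PC.

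When macrophages were taken by at least 5 UMIs of 8 markers and no Cd3, and T cells by at least 5 UMIs of 8 T cell genes and at most 1 macrophage UMI, a choice made after seeing these values, C1q stood at 7827 CPM against 770 CPM in liver PC. The pair was 8419 against 1676 CPM in the library labelled heart TIL, 9496 against 1677 CPM in the one labelled liver TIL and 10470 against 557 CPM in kidney TIL. Under that choice every tissue library with enough cells passed 2-fold, yet T cells of each tissue library still held more C1q than the 365 CPM of heart PBMC macrophages, the highest blood level.

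**Figure D2:**
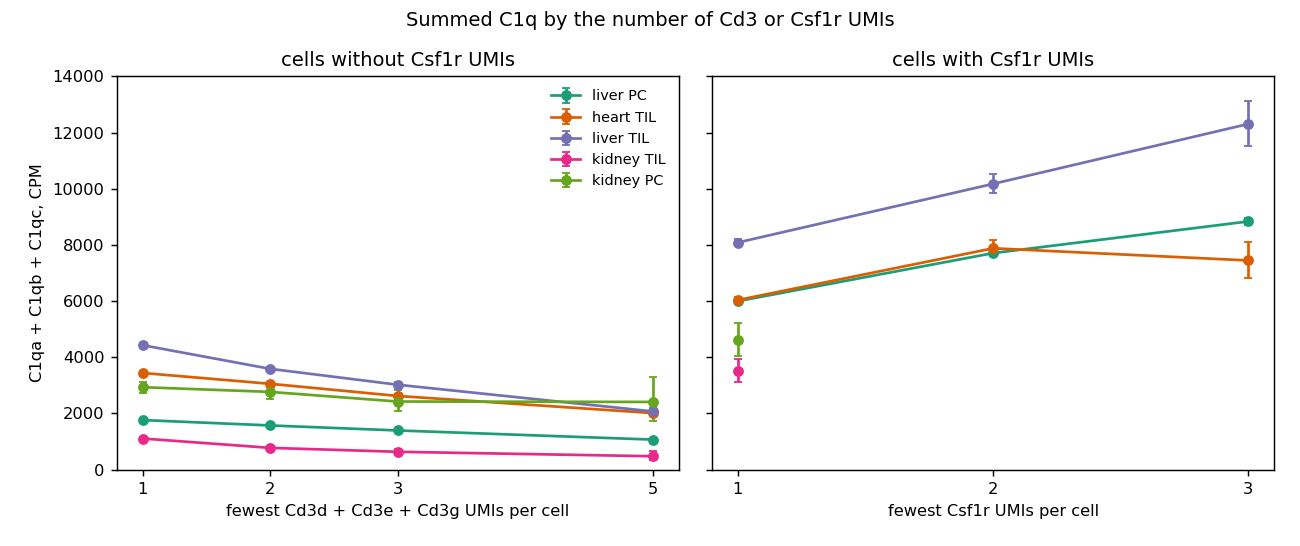
Summed C1q in CPM against the fewest Cd3 UMIs per cell (left, cells without Csf1r) and the fewest Csf1r UMIs per cell (right) in the 5 tissue libraries, with exact 95% counting intervals. C1q is lower in cells with more Cd3 UMIs in all 5 libraries, with overlapping intervals in kidney PC, and is higher going from 1 to 2 Csf1r UMIs in the 3 libraries with enough cells.

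Per cell, Csf1r+ cells of the tissue libraries held C1q UMIs more often than T-gate cells did, though in kidney PC the intervals of the share with any overlapped. With every cell thinned to 500 UMIs, 70.6% (69.0 to 72.2) of 3165 Csf1r+ cells of liver PC held a C1q UMI, against 46.2% (44.8 to 47.6) of 4862 T-gate cells, and without thinning the shares were 90.6% and 74.9% at median depths of 1818 and 1430.5 UMIs. All 3 chains were found in 18.6% and 3.58% of the thinned cells, and 5 or more C1q UMIs in 20.2% (18.8 to 21.7) and 2.67% (2.24 to 3.17). In the library labelled liver TIL, 87.6% of thinned Csf1r+ cells and 78.2% of T-gate cells held a C1q UMI, and 29.8% and 13.6% held 5 or more. In kidney TIL 56.0% and 32.1% held a C1q UMI, and 15.6% and 3.09% held 5 or more. In the library labelled heart TIL 81.0% and 69.7% held a C1q UMI, and 20.6% and 7.38% held 5 or more, while kidney PC gave 70.2% and 66.4%, and 19.0% and 5.78%. In liver PBMC 4.32% (3.09 to 5.86) and 2.12% (1.02 to 3.86) held a C1q UMI. In heart PBMC the shares with any C1q UMI were 1.74% (0.954 to 2.90) and 1.47% (0.807 to 2.46), and the Csf1r+ share could not be told from the background at this depth.

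The C1qa share of C1q UMIs differed across the tissue libraries more than between the Csf1r+ and T gates of a tissue library. In stromal-gate cells it was 17.6% (10.8 to 26.4) in liver PC, 29.1% (25.7 to 32.7) in the library labelled liver TIL and 18.3% (10.6 to 28.4) in the one labelled heart TIL. C1qa made up 19.0% (18.3 to 19.7) of C1q UMIs in Csf1r+ cells of the library labelled heart TIL, 23.7% (22.9 to 24.4) in the one labelled liver TIL, 25.7% (25.3 to 26.1) in liver PC, 31.2% (25.8 to 37.0) in kidney TIL and 36.7% (30.7 to 43.0) in kidney PC. In heart and liver PBMC it made up 9.76% (4.31 to 18.3) and 9.65% (4.92 to 16.6), from 82 and 114 C1q UMIs. T-gate cells of the same libraries followed the same order among the first 3, with 19.4%, 24.4% and 26.5%, and gave 37.8% in kidney TIL and 35.0% in kidney PC. C1qa levels alone were 1147, 1913, 1096, 1543 and 1692 CPM in Csf1r+ cells of the libraries labelled heart TIL and liver TIL, kidney TIL, liver PC and kidney PC.

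C1qc set the gates apart within a library. It made up 28.1% (27.7 to 28.5) of C1q UMIs in Csf1r+ cells and 22.9% (22.2 to 23.6) in T-gate cells of liver PC. The shares were 25.6% (24.8 to 26.4) and 21.0% (20.4 to 21.6) in the library labelled heart TIL, and 26.0% (25.3 to 26.8) and 21.7% (21.1 to 22.4) in the one labelled liver TIL. In kidney TIL they were 27.0% (21.9 to 32.5) and 21.6% (19.3 to 24.1), and in kidney PC 22.2% (17.2 to 27.9) and 17.6% (15.1 to 20.4). C1qc was the higher in Csf1r+ cells of all 5 tissue libraries, with separate intervals in the 3 deeper ones. C1qb showed the reverse there, at 46.2% against 50.6% in liver PC, 55.4% against 59.6% in the library labelled heart TIL and 50.3% against 53.8% in the one labelled liver TIL. In kidney TIL and PC the C1qb intervals of the gates overlapped.

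**Figure D3:**
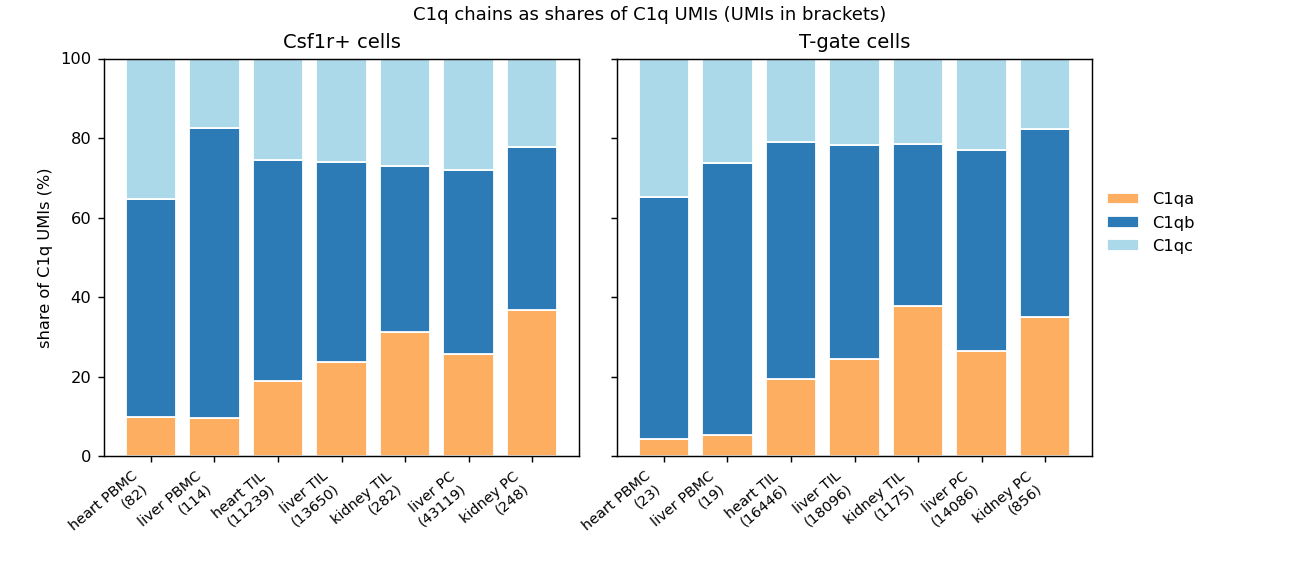
Share of C1q UMIs (percent) from C1qa, C1qb and C1qc in Csf1r+ cells (left) and T-gate cells (right) of 7 libraries, with the number of C1q UMIs in brackets. C1qa ranges from 19.0% to 36.7% among the tissue libraries in Csf1r+ cells, and C1qc is larger there than in T-gate cells of the same tissue library.

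The Kupffer gate, meant for the resident macrophages of liver sinusoids, held 1060 cells in liver PC and 752 in the library labelled heart TIL, and 1 in the one labelled liver TIL. In liver PC only 452 of them also had a Csf1r UMI, and 82.2% had a Cd3 UMI. Their 5 Kupffer markers outside the gate summed to 949 CPM against 211 CPM in the other Csf1r+ cells. Their macrophage markers without Csf1r summed to 10350 against 16288 CPM and their T cell markers to 4018 against 3035 CPM, and the part of these in the comparison was not tested. C1q measured 5724 CPM (5629 to 5821) in Kupffer-gate cells and 5554 CPM in the other Csf1r+ cells of liver PC, a fold of 1.03 (1.01 to 1.05). In the library labelled heart TIL only 162 of the 752 Kupffer-gate cells also had a Csf1r UMI, and 72.5% had a Cd3 UMI. There C1q measured 7189 CPM (7009 to 7373) and 5516 CPM, a fold of 1.30 (1.26 to 1.35). Both turned, to log2 folds of -0.36 and -0.16, when the other macrophages were taken by several markers and without Cd3 while the Kupffer gate kept its Cd3+ cells, so these set unlike gates side by side. Properdin was 578 and 481 CPM in liver PC, C5ar1 95.5 and 138 CPM, C3ar1 42.3 and 71.7 CPM, and Cfb 85.5 and 119 CPM. None of the 9 genes differed 2-fold between the gates in either library, where 2.62% and 5.46% of all tested genes did.

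Between tissue and blood the C1q difference was far larger than between organs. Csf1r+ cells of tissue exceeded those of the blood library labelled for the same organ 59.3-fold (48.2 to 75.3) for the library labelled heart TIL, 63.9-fold (53.5 to 78.1) for that labelled liver TIL and 47.4-fold (39.7 to 57.9) for liver PC. For kidney TIL and PC the folds over blood were 53.0 (18.2 to 262) and 69.6 (23.9 to 345), with 3 UMIs on the blood side. The labels tie no tissue library to a blood library by animal. Stricter gates lowered the first 3 to log2 folds of 4.73, 5.30 and 4.90, where the gate of 1 UMI gave at least 5.57, and for the library labelled heart TIL several markers per cell gave 4.52 and the mean of per-cell CPM 6.65. C3ar1 followed, at 55.9 against 4.92 CPM for heart, and 164 and 67.3 CPM in the library labelled liver TIL and liver PC against 5.51 CPM in liver PBMC. Cfb stood at 160 against 22.1 CPM for heart, and 103 and 119 against 19.8 CPM for liver. Cfp was 2.60-fold (2.21 to 3.08), 2.10-fold (1.79 to 2.48) and 2.62-fold (2.27 to 3.06) higher in tissue in the same order. C3 and C4b differed less than 2-fold in these heart and liver pairs. C5ar1 alone passed 2-fold downward, at 113 CPM in the library labelled heart TIL against 322 CPM in heart PBMC. Of the 9 genes, 7, 6 and 6 passed 2-fold in either direction in the heart pair, the liver TIL pair and the liver PC pair, where 50.1%, 31.5% and 33.7% of all genes did. C1qa and C3ar1 in the heart pair and C3ar1 in the liver pairs reached 10 UMIs in tissue only, with 8, 4 and 5 UMIs in blood. They entered the count through the side where they are high and add no support to it. The gate holds unlike cells in blood and tissue, as the marker levels above show, and the part of this in the folds was not tested.

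Between organs, only the liver to kidney comparison of TIL passed 2-fold, at 2.30 (2.05 to 2.60) by label, and with the heart TIL and liver TIL labels exchanged it was 1.72 (1.53 to 1.94) and the heart to kidney fold was the one of 2.30. The library labelled liver TIL exceeded that labelled heart TIL 1.34-fold (1.31 to 1.37), and liver PC exceeded kidney PC 1.30-fold (1.15 to 1.48). With macrophages taken by several markers the library labelled liver TIL held 9496 CPM (9345 to 9649) and that labelled heart TIL 8419 CPM (8244 to 8597). The latter lay below kidney TIL at 10470 CPM (9458 to 11562), whose interval overlapped that of the library labelled liver TIL. With gates kept exclusive the liver to kidney fold shrank to 0.41 on the log2 scale. T-gate levels ran with the Csf1r+ levels in TIL, at 4384, 3241 and 1111 CPM, and their part in the organ differences was not tested. In blood the organ folds were 1.24 (0.93 to 1.67) for liver over heart, 1.91 (0.64 to 9.47) for liver over kidney and 1.54 (0.51 to 7.65) for heart over kidney, so no order was detectable with this gate. Macrophages taken by several markers held 365 CPM (308 to 429) in heart and 130 CPM (109 to 153) in liver PBMC, the opposite direction, while the mean of per-cell CPM gave a log2 fold of 1.10 for liver over heart. Over all 9 genes, 1 passed 2-fold for liver over heart TIL (C3ar1, higher by label and lower in liver with the labels exchanged), 4 for liver over kidney TIL, 4 for heart over kidney TIL and 3 for liver over kidney PC, where 12.7%, 48.4%, 47.8% and 68.5% of all genes did in either direction. C5ar1 was among them in the comparisons with kidney, at 24.9 CPM from 2 UMIs in kidney TIL and with no UMI in Csf1r+ cells of kidney PC, where 3 UMIs would be 55.8 CPM. C3ar1, counted for liver over kidney TIL, and C3, counted for heart over kidney TIL, held 4 and 6 UMIs in kidney TIL. C5ar1, C3ar1 and C3 entered these counts through the side where they are high and add no support to them. C4b passed downward in the PC comparison, at 34.2 CPM in liver against 130 CPM from 7 UMIs in kidney.

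C3, the component on which all routes converge, was highest in stromal-gate cells. It measured 4394 CPM (3892 to 4942) in 23 such cells of liver PC, 2095 CPM (1674 to 2591) in 33 cells of the library labelled heart TIL and 745 CPM (629 to 875) in 199 cells of that labelled liver TIL. T-gate cells held 90.9, 153 and 101 CPM. The folds were 47.8 (42.0 to 55.5), 13.6 (10.8 to 17.1) and 7.34 (6.10 to 8.96). The 6 stromal markers outside the gate summed to 19597, 6410 and 14782 CPM in these cells against 41.9, 68.0 and 460 CPM in T-gate cells, and 60.9%, 54.5% and 60.8% of the cells also held a Cd3 UMI. Summed C1q in the same cells stood at 1612, 2022 and 3356 CPM, no more than 1.01 times the T-gate level. T cells taken by several markers held less C1q, at 770, 1676 and 1677 CPM. Whether stromal-gate cells stood above the background in C1q thus depended on the T gate used.

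Hepatocyte-gate cells held C3 at 1425 CPM (1228 to 1646) in 57 cells of liver PC, 15.5-fold (13.3 to 18.4) over T-gate cells. In 22 cells of the library labelled heart TIL it was 346 CPM (149 to 682) from 8 UMIs, and the fold of 2.25 had an interval of 0.97 to 4.47. Tubule-gate cells of kidney TIL, 60 in number, held 323 CPM (184 to 524) from 16 UMIs against 52.0 CPM in T-gate cells, while the 40 of kidney PC held 72.1 CPM from 2 UMIs against 144 CPM. Tubule-gate cells of liver PC were left out because their hepatocyte markers, at 15919 CPM, exceeded their tubule markers, at 5226 CPM. Csf1r+ cells held C3 between 43.5 and 217 CPM in the 8 libraries and passed 2-fold over T-gate cells in liver PC only, at 217 (206 to 228) against 90.9 CPM (84.7 to 97.4).

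C4b, whose product is cleaved after C1 activation, was higher in stromal-gate and tubule-gate cells. The stromal level was 363 CPM (230 to 545) in liver PC, with 173 CPM (69.4 to 356) in the library labelled heart TIL and 146 CPM (97.7 to 210) in the one labelled liver TIL, against 15.5, 21.9 and 26.4 CPM in T-gate cells. The folds were 22.2 (14.4 to 36.8), 7.59 (3.10 to 16.8) and 5.36 (3.54 to 8.39). The tubule level was 303 CPM (169 to 499) in kidney TIL and 361 CPM (173 to 663) in kidney PC, from 15 and 10 UMIs, against 14.2 and 41.1 CPM. On the log2 scale those folds were 4.32 (3.28 to 5.55) and 3.10 (1.76 to 4.47), the only tubule folds past 2 in both kidney libraries. In hepatocyte-gate cells of liver PC C4b stood at 99.6 CPM (53.0 to 170). Csf1r+ cells of the tissue libraries held 24.9 to 130 CPM, the highest from 7 UMIs in kidney PC. In heart and liver PBMC they held 22.1 and 30.9 CPM against 1.19 and 7.77 CPM in T-gate cells, from 18 and 28 UMIs against 1 and 3.

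Cfb, the serine protease of the alternative C3 convertase, was higher in Csf1r+ cells of 4 tissue libraries, at least 2-fold in 3 of them, and in stromal-gate cells of liver PC. In Csf1r+ cells it measured 160 CPM (142 to 179) in the library labelled heart TIL, 103 CPM (88.3 to 120) in the one labelled liver TIL, 119 CPM (111 to 127) in liver PC and 112 CPM (51.2 to 213) in kidney TIL, and 74.4 CPM from 4 UMIs in kidney PC. T-gate cells held 69.6, 57.4, 23.2, 15.1 and 30.8 CPM. The folds were 2.28 (1.96 to 2.68), 1.78 (1.47 to 2.19), 4.96 (4.40 to 6.01) and 7.01 (2.88 to 17.8) in the first 4. Liver PC gave the largest fold of the 9 genes for Csf1r+ cells with Cfb, ahead of C1qc at 4.58. Stromal-gate cells of liver PC held 269 CPM (157 to 430), 11.2-fold (6.62 to 19.0) over T-gate cells, and hepatocyte-gate cells 38.3 CPM from 5 UMIs. In the libraries labelled heart TIL and liver TIL stromal-gate cells held 173 and 90.6 CPM, with fold intervals of 0.99 to 5.17 and 0.92 to 2.55. In heart and liver PBMC Csf1r+ cells held 22.1 and 19.8 CPM, from 18 UMIs each, against 3.57 and 2.59 CPM in T-gate cells, from 3 and 1.

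**Figure D4:**
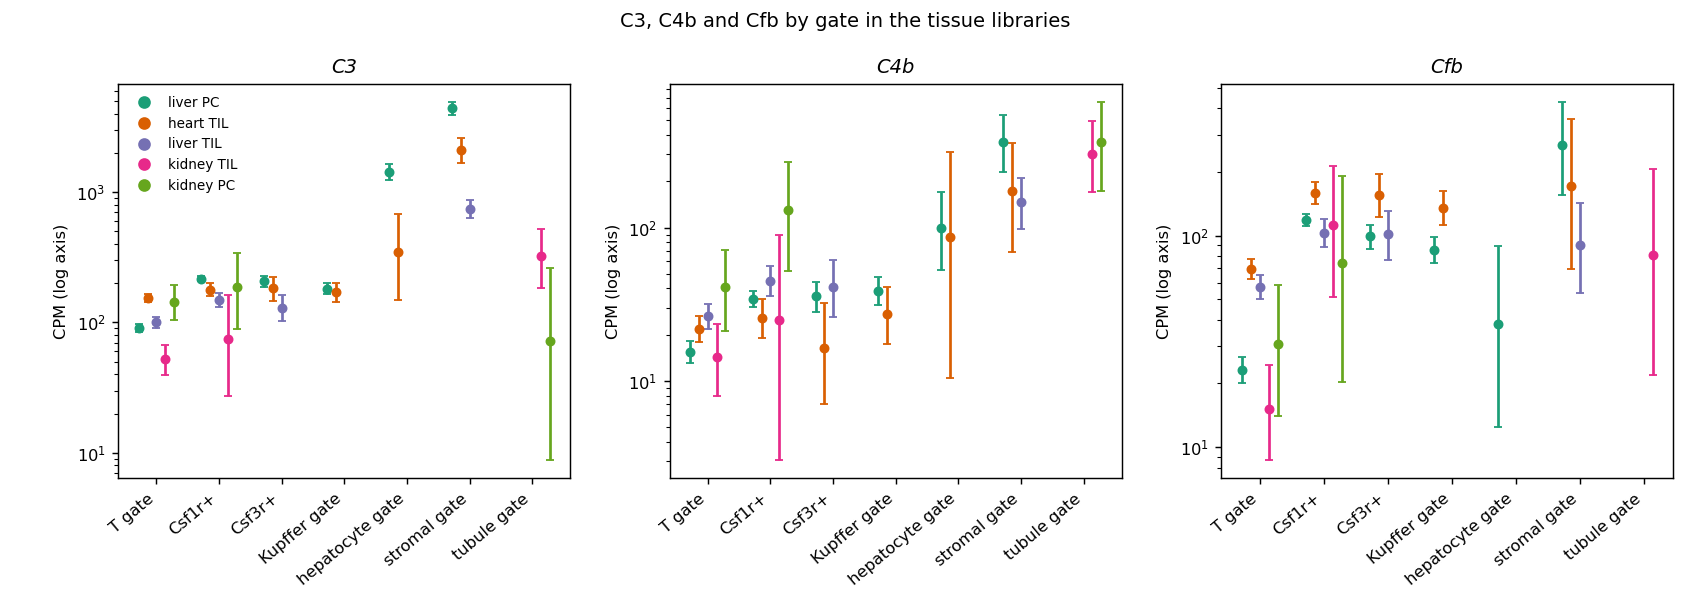
C3, C4b and Cfb in CPM, on log axes, by gate in the 5 tissue libraries with exact 95% counting intervals. Gates under 20 cells, gates with 0 UMIs and the tubule gate outside kidney are not drawn. C3 is highest in stromal-gate cells of all 3 libraries that have them, C4b is high in stromal-gate and tubule-gate cells, and the Cfb intervals of Csf1r+ and stromal-gate cells overlap in 2 of 3 libraries.

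Cfp, the properdin that stabilizes the convertase, was higher in Csf1r+ than in T-gate cells of 4 tissue libraries, and in kidney PC the fold interval of 0.85 to 3.28 spans no difference. Csf1r+ cells held 541 CPM (509 to 576) in the library labelled heart TIL, 436 CPM (405 to 469) in the one labelled liver TIL, 545 CPM (528 to 563) in liver PC, but 237 CPM (142 to 369) in kidney TIL and 242 CPM (129 to 413) in kidney PC. T-gate cells held 267, 225, 139, 61.5 and 140 CPM. The fold was 3.90 (3.68 to 4.18) in liver PC and 3.80 (2.18 to 6.50) in kidney TIL, and 2.02, 1.94 and 1.72 in the libraries labelled heart TIL and liver TIL and in kidney PC. In blood Cfp stood at 208, 207 and 109 CPM in Csf1r+ cells, the last from 5 UMIs, and at 198, 195 and 97.5 CPM in Csf3r+ cells of heart, liver and kidney recipients. T-gate cells of the same libraries held 133, 106 and 23.9 CPM, so in heart and liver PBMC both gates stayed within 2-fold of them. The Csf1r and Csf3r gates overlap, since 469 and 454 Csf1r+ cells of heart and liver PBMC also passed the Csf3r gate. Stromal-gate cells held 126 to 181 CPM and stayed within 2-fold of T-gate cells. Hepatocyte-gate cells of liver PC held 207 CPM (136 to 301), a fold of 1.48 (0.98 to 2.17). Tubule-gate cells held 1 UMI in each kidney library.

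C3ar1, the receptor for C3a, was scarce. Csf1r+ cells held 55.9 CPM (45.6 to 67.7) in the library labelled heart TIL, 164 CPM (145 to 185) in the one labelled liver TIL and 67.3 CPM (61.5 to 73.6) in liver PC, and 4 and 3 UMIs in kidney TIL and PC. T-gate cells held 33.3, 92.3 and 22.2 CPM. The fold over T-gate cells passed 2 in liver PC, at 2.95 (2.57 to 3.61), and was 1.66 and 1.77 in the other two. In blood it amounted to 4, 5 and 0 UMIs for heart, liver and kidney recipients. The library labelled liver TIL stood above that labelled heart TIL in Csf1r+ cells and in T-gate cells. Stromal-gate cells of liver PC and of the library labelled heart TIL had no C3ar1 UMI, where 3 UMIs would be 47.4 and 74.0 CPM, above the T-gate level, so a lower level there was not detectable.

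C5ar1, the receptor for C5a, was the one member with its highest level in blood. Csf3r+ cells held 366 CPM (347 to 386) in heart PBMC, 239 CPM (221 to 257) in liver PBMC and 106 CPM (56.2 to 181) in kidney PBMC. T-gate cells of the same libraries held 246 CPM (214 to 282), 101 CPM (71.8 to 138) and 32.5 CPM (19.6 to 50.7). The folds were 1.48 (1.28 to 1.73), 2.35 (1.71 to 3.35) and 3.18 (1.48 to 6.94), with 13 UMIs behind the last, which dropped to 0.46 on the log2 scale with a floor of 1000 UMIs per cell. The heart fold passed the 2-fold mark with that floor, with stricter gates and with several markers per cell. Neutrophil markers without Csf3r summed to 208252, 129621 and 114816 CPM in these Csf3r+ cells and to 160045, 82967 and 26260 CPM in T-gate cells. The T-gate levels of C5ar1 and of the neutrophil genes ran in the same order, and the part of neutrophil RNA in the folds was not tested. In tissue, Csf3r+ cells held 144, 167 and 190 CPM in the libraries labelled heart TIL and liver TIL and in liver PC, with folds of 2.63 (2.02 to 3.47), 2.31 (1.83 to 2.95) and 3.91 (3.47 to 4.55). Csf1r+ cells of liver PC held 134 CPM, 2.77-fold over T-gate cells.

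Counted over the 9 genes, liver PC stood out. There all 9 were at least 2-fold higher in Csf1r+ than in T-gate cells, where 8.48% of 12537 tested genes were. The count was 4 of 9 in the library labelled heart TIL and 1 of 9 in the one labelled liver TIL, where 1.96% and 1.82% of genes were. With several markers per cell, a choice made after seeing the data, all 9 passed in both, where 11.8% and 16.3% of genes did. C4b in the latter, with 68 UMIs in macrophages and 7 in T cells, entered through the side where it is high and adds no support. The count was 5 of 7 tested in kidney TIL and 1 of 6 in kidney PC, with 10.4% and 4.27% of all genes. In PBMC it was 4 of 7, 4 of 8 and 1 of 3 for heart, liver and kidney recipients, with 3.75%, 9.21% and 12.7% of all genes. In heart and liver PBMC 3 of the 4 reached 10 UMIs in Csf1r+ cells only, and so entered the count through the side where they are high, and these counts support nothing. The median log2 fold of the tested members was 1.77 in liver PC, 0.87 and 0.83 in the libraries labelled heart TIL and liver TIL, 1.70 in kidney TIL and 0.75 in kidney PC, and the median over all tested genes lay between -0.31 and 0.04 in the 8 libraries. Members with at least 10 UMIs on either side were counted, so the scarce genes dropped out in the small libraries.

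In stromal-gate cells 3 of 9 were higher in liver PC and in the library labelled heart TIL (C3, C4b and Cfb) and 2 in the one labelled liver TIL (C3 and C4b), with 19%, 17.3% and 11.1% of all genes, and Cfb in the library labelled heart TIL rests on 7 UMIs with a fold interval of 0.99 to 5.17. In hepatocyte-gate cells C3, C4b and C3ar1 were higher in liver PC and in the library labelled heart TIL, where 14.9% and 16% of all genes were, and in the latter C4b and C3ar1 rest on 2 UMIs each and C3 on 8, with a fold interval of 0.97 to 4.47. In liver PC C3ar1 rests on 9 UMIs, at 69.0 CPM, beside 67.3 CPM in Csf1r+ cells. Of the 57 hepatocyte-gate cells there, 12 also had a Csf1r UMI and 61.4% a Cd3 UMI, and the part of such mixed cells was not tested. In tubule-gate cells 3 of 7 were higher in kidney TIL (C3, C4b and Cfb) and 1 of 6 in kidney PC (C4b), with 13.9% and 10% of all genes. At least 2-fold lower were C3ar1, with no UMI, in stromal-gate cells of liver PC and of the library labelled heart TIL, where 46.4% and 51.3% of all genes were lower, and Cfb, with no UMI, and Cfp in hepatocyte-gate cells of that library, where 63.7% were. C1qa and Cfp in tubule-gate cells of kidney TIL, Cfp in those of kidney PC and C5ar1, with no UMI, in Csf1r+ cells of kidney PBMC were lower too, where 46.0%, 36.6% and 29.8% of all genes were. Of these members, C1qa alone, at 121 against 420 CPM, had a fold interval under 1, at 0.11 to 0.63. In Csf3r+ cells 9 of 9 were higher in liver PC, 2 in the library labelled heart TIL and 1 in the one labelled liver TIL, where it was C5ar1, with 8.24%, 4.87% and 3.47% of all genes. In Csf3r+ cells of PBMC the counts were 2 of 8, 3 of 8 and 3 of 3 for heart, liver and kidney recipients, with 4.22%, 8.68% and 8.72% of all genes. C1qa and C4b in heart and C4b and Cfb in liver PBMC reached 10 UMIs in Csf3r+ cells only. T-gate cells held 1, 1, 3 and 1 UMIs of them. These members entered through the side where they are high, and the heart and liver counts support nothing. Csf3r+ cells of liver PC held 10919 C1q UMIs, 4671 CPM, and macrophage markers without Csf1r at 13924 CPM against 15652 CPM in Csf1r+ cells. Of these 1146 Csf3r+ cells, 480 also passed the Csf1r gate and 77.1% had a Cd3 UMI. Their count of 9 and that of Csf1r+ cells therefore share cells.

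**Figure D5:**
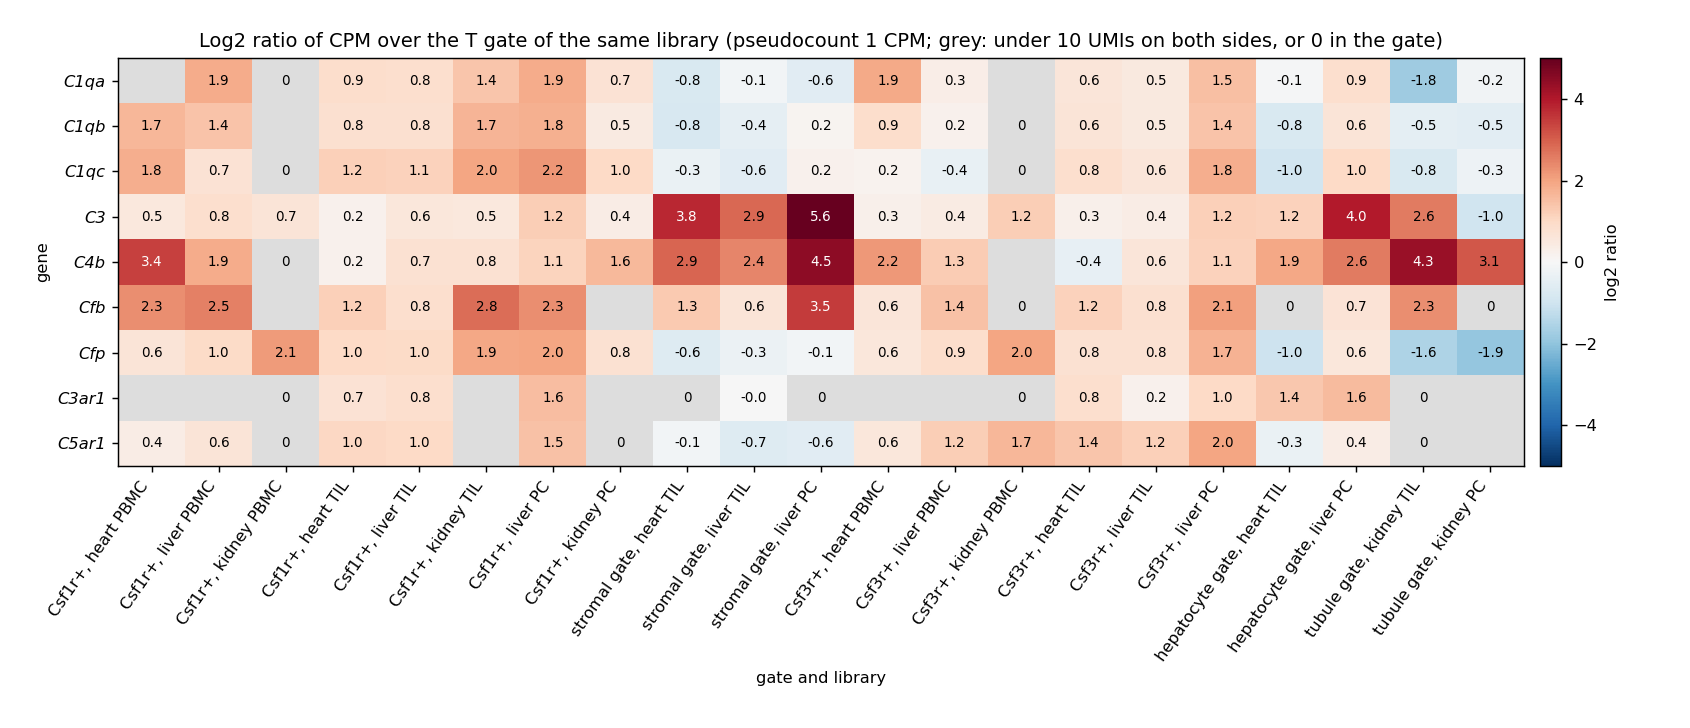
Log2 ratio of CPM in each gate over T-gate cells of the same library, with 1 CPM added to each side, for the 9 genes (rows) and 21 gate and library pairs (columns). Grey cells had fewer than 10 UMIs on both sides or, where marked 0, no UMI in the gate. C3 and C4b are highest in the stromal column of liver PC, at 47.8- and 22.2-fold. All 9 genes exceed 1 in Csf1r+ and Csf3r+ cells of liver PC, gates that share cells.

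A list of 42 further complement genes was read in the same gates. Of these, 25 reached 10 UMIs in a gate, and they are described in the gate of their highest level, a choice that favours high folds, so as a description only. In Csf1r+ cells of liver PC 8 of 23 tested were at least 2-fold higher and 0 lower, where 8.48% of all genes were higher and 4.54% lower. In its stromal-gate cells 9 of 21 were higher and 8 lower, against 19% and 46.4% of all genes, and in its hepatocyte-gate cells 10 of 21 were higher and 2 lower, against 14.9% and 38.1%. In Csf1r+ cells of the libraries labelled heart TIL and liver TIL 3 of 23 and 1 of 14 were higher, against 1.96% and 1.82% of all genes, and in kidney TIL and PC 2 of 8 and 1 of 6, against 10.4% and 4.27%, with 0 lower. In the library labelled heart TIL stromal-gate cells gave 10 of 23 higher and 11 lower and hepatocyte-gate cells 9 higher and 11 lower, where 17.3% and 16% of all genes were higher and 51.3% and 63.7% lower. The proteases that C1q activates were highest in stromal-gate cells of liver PC: C1s1 at 885 CPM (669 to 1149) against 2.84 CPM in T-gate cells and C1ra at 585 CPM (412 to 806) against 6.48 CPM. Their inhibitor Serping1 reached 2070 CPM (1731 to 2457) against 6.82 CPM there. C2 stood at 300.3 CPM (181 to 469) against 3.07 CPM and the membrane regulator Cd55 at 158 CPM (75.8 to 291) against 13.2 CPM. C1q and the proteases it activates were thus highest in different gates.

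Hepatocyte-gate cells of liver PC held C4bp, the binding protein for C4b, at 207 CPM (136 to 301) against 2.16 CPM, and the terminal pathway inhibitor Vtn at 337 CPM (245 to 453) against 5.45 CPM. Clu, which also binds the terminal complex, reached 1470 CPM (1018 to 2054) against 65.2 CPM in hepatocyte-gate cells of the library labelled heart TIL. Kupffer-gate cells of liver PC held the C3b receptor Vsig4 at 120 CPM (107 to 135) against 6.93 CPM, the terminal component C6 at 14.1 CPM against 0.682 CPM and Cd59a at 6.64 CPM against 1.59 CPM. The lectin Fcna stood at 64.2 CPM against 8.08 CPM in Kupffer-gate cells of the library labelled heart TIL, and Fcnb at 39.0 CPM, a fold of 3.07, in its Csf3r+ cells. In liver PBMC, C5ar2 stood at 16.9 CPM against 5.18 CPM in Csf3r+ cells and Cd93 at 30.9 CPM against 5.18 CPM in Csf1r+ cells. The other 9, the integrin chains Itgam, Itgax and Itgb2 among them, stayed within 2-fold. C4a reached 1.39 CPM at most, against the C4b levels above. The other 17 genes, among them Hc, C9 and Mbl1, had too few UMIs in every gate.

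The genes most alike across the 30 gate and library sums of at least 30 cells were found among 9684 genes by the Pearson correlation of log2(CPM + 1). Gates of a library share cells and may share free RNA, which was not tested, so these values describe the sums and carry no test. The sums include the tubule gate of liver PC, at 32 cells, which the comparisons above left out. The stromal gate of liver PC, at 23 cells, is not among them. Closest to summed C1q were Hspa1a (r = 0.93), Ccl12 (0.93), Aif1 (0.93), Cxcl16 (0.92) and Mmp14 (0.92), of which Aif1 is a macrophage protein and Ccl12 and Cxcl16 are chemokines. Cxcl1 (0.85) and Serpina3n (0.83) led for C3, Tmem176a (0.90) and Cpq (0.88) for C4b, Rab3il1 (0.89) and P2rx4 (0.87) for Cfb, and Clec12a (0.92) and Slc31a2 (0.89) for Cfp. Slamf9 (0.87) and Stab1 (0.85) led for C3ar1, and Lmbrd1 (0.92) and Mtus1 (0.87) for C5ar1. Serping1 (0.83) was among the 5 closest to C4b.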

How the data were processed

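Single cells were read by Microwell-seq in 8 libraries, 1 per condition. Reads with a barcode base quality under 10 had been discarded and the others mapped with STAR to GRCm38, keeping unique alignments. UMIs of a gene within 1 edit distance were merged, and the authors deposited raw UMI counts per gene and barcode. Genes had been tagged with GENCODE annotation files. The stated minimum of 500 UMIs had not been applied to 7 of the 8 tables, and 1 cell over that minimum exceeded the stated 10% of mitochondrial UMIs.

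Barcodes with at least 500 UMIs were kept. Macrophage, Kupffer and neutrophil gates needed 1 UMI of their genes, the stromal gate 3, the hepatocyte gate 10 UMIs of 9 genes and the tubule gate 5 UMIs of 8 genes. T cells had 1 Cd3 UMI and passed no other gate. Gates overlap, and no doublet caller was run. UMIs were summed per gate and library and scaled to the UMIs of those cells (CPM), with exact Poisson intervals, exact conditional binomial intervals for folds (without the added 1 CPM) and exact binomial intervals for shares, all at 95%. PCR and capture errors are not covered. A gene was compared with at least 10 UMIs on either side and counted at 2-fold. Shares were thinned to 500 UMIs per cell (seed 0), and at least 20 cells were needed. Library totals ran from 3418722 to 19171264 UMIs. With 1 library per condition no model was fitted. The size rule and intervals were tested on simulated data.

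The 9 genes, the gates and the list of 42 genes were chosen with earlier results of these data known. All 9 were named, the list by its 2-fold rule, and the 5 genes most alike by correlation. Genes outside these are markers. Alternatives were a floor of 1000 UMIs, at most 10% mitochondrial UMIs, exclusive, stricter or looser gates, the mean of per-cell CPM, a pseudocount of 10 CPM, 1.5-fold and 4-fold rules, no thinning and exchanged labels. Gating macrophages and T cells by several markers and leaving out shared barcodes were added after seeing the data. Figures were drawn with matplotlib 3.10.9, tables handled in pandas 2.3.3, and intervals computed by scipy 1.17.1 and numpy 2.4.6 under Python 3.11.15.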

Additional observations from a re-analysis of the deposited data

Results flagged for a closer look

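Barcodes under 500 UMIs, which enter no comparison above, held summed C1q above the level that 3 UMIs would give. The level was 3722 CPM in 332 such barcodes of the library labelled heart TIL, 4491 CPM in 663 of that labelled liver TIL, 2152 CPM in 7995 of kidney TIL and 3647 CPM in 9205 of kidney PC. It lay below the Csf1r+ level in each of these 4 libraries and above the T-gate level in 3 of them, while in the library labelled liver TIL its interval overlapped that of T-gate cells. In PBMC of heart, liver and kidney recipients it was 11.0, 34.0 and 12.5 CPM, from 10, 45 and 30 UMIs. Liver PC had no barcode under 500 UMIs. Where these UMIs came from was not tested.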

How the results depend on the processing

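No paired analysis was possible because each condition has 1 library and no replicate numbers. Limiting mitochondrial UMIs removed 1 cell of 47542, so its values are not counted here. Of 328 other recomputed values, 230 stayed on their side of the 2-fold rule and moved little, 76 moved, 16 passed the rule newly, 5 dropped under it and 1 past it changed sign. Among these, 12 values that were not past the rule changed sign. A further 44 could not be computed for too few cells. Looser hepatocyte and tubule gates changed no direction or call. Libraries are named by their labels. Values below are log2 folds over T-gate cells unless named, and the causes were not tested.

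With a floor of 1000 UMIs, C1q in Csf1r+ cells was 3.64 and 2.65 in heart and liver PBMC and 1.15 and 1.27 in the libraries labelled heart TIL and liver TIL. Stromal C3 and C4b in the latter were 3.65 and 3.09, C5ar1 in Csf3r+ cells 1.21 in heart and 0.46 in kidney PBMC, C1q of heart TIL over blood 5.28, and 8 of 9 genes passed in liver TIL.

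With stricter gates, the same C1q folds were 3.93, 2.90, 1.34 and 1.40, stromal C3 in liver TIL 3.69, and C5ar1 1.18 in heart PBMC, 2.71 in heart TIL and 2.08 in liver TIL. Cfp in Kupffer-gate over other Csf1r+ cells of liver PC was 0.96. C1q over blood was 4.73 in heart TIL, 5.30 in liver TIL and 4.90 in liver PC, and 7 genes passed in heart TIL and 7 in liver TIL.

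With several markers per cell, a choice that redefined macrophages and T cells and left the other gates as they were, C1q was 5.15, 7.03, 2.33, 2.501, 4.23 and 3.34 in heart PBMC, liver PBMC, heart TIL, liver TIL, kidney TIL and liver PC. In T cells of heart PBMC 2 C1q UMIs lie behind the first value, and in those of liver PBMC none, so 7.03 is set by the added 1 CPM, and against 3 UMIs the level was at least 3.93-fold higher on the linear scale. Over these T cells, stromal C3 was 4.55, 4.35 and 6.61 in heart TIL, liver TIL and liver PC, stromal C4b 3.63 and 5.42 in the last pair, and hepatocyte C3 4.99. C5ar1 was 1.96, 3.38, 2.49, 2.99 and 3.41 in heart PBMC, liver PBMC, heart TIL, liver TIL and liver PC. C1q was -0.14 for liver over kidney TIL, -0.31 for heart over kidney TIL and -1.48 and -0.91 for liver over heart and kidney PBMC, all 4 changes of sign and the first from a value past the rule, and 4.52 for heart TIL over blood. The liver and kidney intervals overlapped in TIL and in PBMC, where 9 C1q UMIs lie behind the kidney level. No order of liver and kidney was thus detectable there. In heart PBMC, liver PBMC, heart TIL and liver TIL 7, 7, 9 and 9 genes passed, where over 7 libraries 11.4% to 26.2% of all genes did. All of them in liver PBMC, all but Cfp and C5ar1 in heart PBMC, and C4b in liver TIL reached 10 UMIs in macrophages only. These entered through the side where they are high, and the PBMC counts support nothing.

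As the mean of per-cell CPM, C1q was 0.83 in heart PBMC, 0.91 for liver over kidney TIL, 1.10 and 1.09 for liver over heart and kidney PBMC and 6.65 for heart TIL over blood. Then 2, 1, 0 and 2 genes passed in heart PBMC, heart TIL, liver TIL and kidney PC. With exclusive gates, C1q was 1.26, 1.13, 2.69 and 1.20 in heart, liver and kidney TIL and kidney PC, 0.41 for liver over kidney and 0.12 for heart over kidney TIL, stromal C3 3.69 in liver TIL, and C5ar1 2.60 in liver PC. Then 2, 6 and 4 genes passed in heart PBMC, liver TIL and kidney PC.

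With the heart TIL and liver TIL labels exchanged, C1q was -0.42 for liver over heart, a change of sign by construction, 0.78 for liver over kidney and 1.20 for heart over kidney TIL. Without shared barcodes, C1q was 1.32 for liver over kidney PBMC, and 3 and 2 genes passed in liver TIL and kidney PC. With a 4-fold rule 2, 1, 0, 0, 1, 2 and 0 genes passed in heart PBMC, liver PBMC, heart TIL, liver TIL, kidney TIL, liver PC and kidney PC. With a 1.5-fold rule 8, 2, 7, 8 and 4 passed in liver PBMC, kidney PBMC, heart TIL, liver TIL and kidney PC. Under both rules the heart and liver PBMC counts include members that reached 10 UMIs only on the side where they are high. With a pseudocount of 10 CPM 2 passed in heart TIL. Over the libraries, the share of all genes that passed ran from 9.23% to 20.9% at 1.5-fold, 0.038% to 3.06% at 4-fold, 0.23% to 9.90% with that pseudocount, 4.98% to 18.7% with the floor of 1000 UMIs, 6.97% to 14.5% with stricter gates, 1.54% to 13.6% as per-cell means, 3.55% to 17.9% with exclusive gates and 2.35% to 13.3% without shared barcodes. The shallow kidney libraries and 3 C1q UMIs in kidney PBMC limit every comparison with them.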
